A study of Mus musculus with 18 samples.

Results

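Open chromatin was compared between naive CD4+ T cells with high and with low reporter signal from mesenteric lymph nodes, the nodes that drain the gut. The comparison holds 3 libraries of cells with high and 3 of cells with low tonic T cell receptor (TCR) stimulation, 6 of the 18 libraries of the series, chosen by their titles alone. The cells were freshly prepared and untreated, from C57BL6/J mice, and all 6 libraries carry the genotype label WT. The high and low fractions were sorted by Nr4a1-dsGFP, a destabilised green fluorescent protein that reports on the TCR-induced gene Nr4a1. The labels do not say which promoter or insertion carries the reporter, how many copies cells hold, or whether animals were pooled or matched between fractions. The other 12 libraries came from spleen and axillary nodes and enter only where a difference between organs was tested.

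Naive T cells receive weak signals from self peptides on MHC molecules without being activated, which is called tonic TCR stimulation. Strong receptor signals act through kinases such as Zap70 on transcription factors of the NFAT, NF-kB, AP-1 and Egr families, and quickly induce the nuclear receptor gene Nr4a1. Signal strength is held back by inhibitory receptors such as PD-1, by ubiquitin ligases such as Cbl-b and by phosphatases. In ATAC-seq, Tn5 transposase cuts accessible DNA, so peaks mark open promoters near gene starts and open enhancers farther away.

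Of the regions named by rank over all regions and those of Nr4a1, 10 overlapped the 250 bases before the start of their gene. The starts are from RefSeq's promoter table (GRCm38.p6, the same assembly as mm10). Regions named only from gene lists were not searched this way. The sequences of 6 are shown to compare promoters that were higher, lower or open only in low libraries. Lnpep, Opn3, Slc39a10 and Zfp78, which were also lower as centred, are not shown. The Nr4a1 promoter is that of the reported gene, Plxnc1 is the promoter with the lowest p among those higher in high libraries, Etnk1, Yipf6 and Cggbp1 were lower, and Elk3 had a peak in low libraries only. Each runs 5′ to 3′, and capitals mark GC boxes, ETS sites and NF-Y boxes as defined after them.
Nr4a1, chr15:101266596-101266845, plus strand: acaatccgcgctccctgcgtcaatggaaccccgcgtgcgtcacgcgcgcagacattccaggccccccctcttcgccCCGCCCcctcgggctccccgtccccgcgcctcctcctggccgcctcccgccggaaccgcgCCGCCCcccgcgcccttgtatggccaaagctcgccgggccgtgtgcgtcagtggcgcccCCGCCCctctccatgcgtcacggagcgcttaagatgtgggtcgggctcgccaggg
Plxnc1, chr10:94944846-94945095, minus strand: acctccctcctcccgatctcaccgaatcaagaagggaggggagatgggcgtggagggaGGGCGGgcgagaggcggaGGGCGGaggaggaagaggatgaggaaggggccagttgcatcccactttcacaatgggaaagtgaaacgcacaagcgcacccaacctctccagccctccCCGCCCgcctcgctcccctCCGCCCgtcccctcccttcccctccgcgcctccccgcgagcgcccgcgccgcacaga
Etnk1, chr6:143166980-143167229, plus strand: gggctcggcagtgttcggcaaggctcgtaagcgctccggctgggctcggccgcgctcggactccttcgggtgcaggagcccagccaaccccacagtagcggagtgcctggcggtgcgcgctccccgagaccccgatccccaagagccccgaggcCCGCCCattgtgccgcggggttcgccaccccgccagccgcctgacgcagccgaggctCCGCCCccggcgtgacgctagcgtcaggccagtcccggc
Yipf6, chrX:98937531-98937780, plus strand: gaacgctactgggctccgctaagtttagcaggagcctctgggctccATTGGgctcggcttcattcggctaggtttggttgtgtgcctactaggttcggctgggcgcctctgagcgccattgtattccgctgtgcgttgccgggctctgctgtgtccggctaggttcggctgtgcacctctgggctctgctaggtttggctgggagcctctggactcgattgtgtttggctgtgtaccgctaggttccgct
Cggbp1, chr16:64851751-64852000, plus strand: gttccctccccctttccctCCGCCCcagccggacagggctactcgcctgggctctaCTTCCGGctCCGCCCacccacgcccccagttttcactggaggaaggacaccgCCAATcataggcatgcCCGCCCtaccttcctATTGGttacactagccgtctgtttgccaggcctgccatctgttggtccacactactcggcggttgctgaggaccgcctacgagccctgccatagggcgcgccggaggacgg
Elk3, chr10:93311160-93311409, minus strand: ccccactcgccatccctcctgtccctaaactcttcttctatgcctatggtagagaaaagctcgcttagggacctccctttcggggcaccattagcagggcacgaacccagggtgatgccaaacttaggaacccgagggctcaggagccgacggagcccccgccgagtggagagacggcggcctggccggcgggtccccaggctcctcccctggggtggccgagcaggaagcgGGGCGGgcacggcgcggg

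Both strands were searched for 7 motifs. They were the AP-1 site TGANTCA, the CRE TGACGTCA, the NR4A site (NBRE) AAAGGTCA, the EGR site GCGTGGGCG, the ETS site CCGGAAG, the NF-Y box CCAAT and the GC box GGGCGG. The EGR site shares letters with the GC box. Over 21037 promoter windows of this length, 6.17% held an AP-1 site, 1.94% a CRE, 1.21% an NBRE, 0.727% an EGR site, 9.08% an ETS site, 35.7% an NF-Y box and 43.1% a GC box. The Nr4a1 window held 3 GC boxes, that of Plxnc1 4, of Etnk1 2, of Cggbp1 3 and of Elk3 1. Yipf6 held an NF-Y box and no GC box, and Cggbp1 also held 2 NF-Y boxes and an ETS site. A match to these letters is a description of the sequence and not a bound site.

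The 6 peak lists separated by reporter level before any region was compared. High libraries held 22885, 23129 and 23115 peaks and low libraries 17490, 17203 and 17345 (23043 ± 137 against 17346 ± 144, SD, n = 3 each). Relative depth, read from the deposited peak values as background reads per 10 kb, was also higher in high libraries, at 16.6 ± 0.0549 against 12.2 ± 0.471 (SD, n = 3 each), a ratio of 1.36. Neither measure overlapped between the groups (exact permutation test, two-sided, p = 0.1, the smallest that 3 against 3 allow). Lists differing in depth and length therefore stand beside each presence result, and the part of depth in it was not tested. Replicate lists were not copies of each other. The share of summits at the same base was 0.791% to 1.37% in same-group pairs and 1.09% to 1.36% in pairs of different groups. Reads at the summits of shared regions scattered less between same-group libraries than independent counts would, with a chi-square per region of 0.533 to 0.553. Pairs of different groups had 0.6925 to 0.7265. The labels call replicates biological without naming animals, and p-values here reflect only how these libraries scatter, which may be technical. How far animals differ cannot be read from these p-values. Of 10 genes that mark naive CD4 T cells, 9 had a region open in all 6 libraries. For B cells this held for 2 of 10 marker genes, for CD8 T and NK cells for 2 of 9, for myeloid and dendritic cells for 1 of 14 and for erythroid and stromal cells for 4 of 14, while Ms4a1, Cd79a, Pax5, Lyz2 and Csf1r had no region in any library. The share of a library's regions that lie near myeloid markers was 0.0530%, 0.0655% and 0.0612% in high and 0.0290%, 0.0294% and 0.0468% in low libraries, and near erythroid and stromal markers 0.0619%, 0.0568% and 0.0612% against 0.0348%, 0.0412% and 0.0527%. Both were higher in every high library, by a few regions, and their part in the results below was not tested.

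Peaks present in every high and no low library lay mostly far from gene starts, with 56.1% inside genes, and were weaker than shared peaks. Merging the 121167 peaks of the 6 lists gave 30041 regions, of which 12618 had a peak in all 6 libraries. In the lists as deposited 1050 regions (3.50%) were high-only, with a peak in each high library and none in a low library, and 18 (0.0599%) were low-only, the reverse. With each list cut to its 17203 peaks of highest −log10 p, 24718 regions remained, of which 229 (0.926%) were high-only and 141 (0.570%) low-only. Ranked by fold instead, these counts were 263 and 256. Both lists held 220 of the 1050 high-only regions and 17 of the 18 low-only ones.

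**Figure D1:**
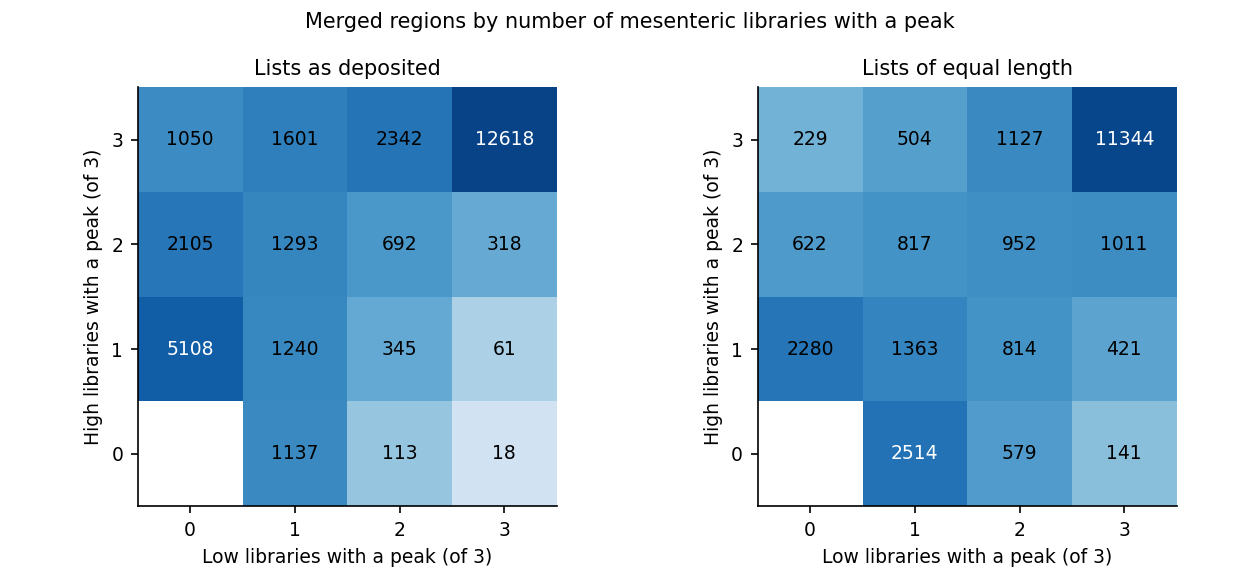
Merged regions counted by how many of the 3 high libraries (vertical) and 3 low libraries (horizontal) had a peak, in the deposited lists and in lists of equal length; darker squares hold more regions on a log scale. The corner for 3 high and 0 low holds 1050 regions as deposited and 229 at equal length, and the opposite corner 18 and 141.

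The 1050 high-only regions differed in position from the regions open in all 6 libraries. Within 1 kb of a gene start lay 145 of them (13.8%), against 60.8% of the regions open in all 6 and 35.1% of all regions. Most, 557 (53.0%), lay 10 to 100 kb from a start. This position was not particular to high-only regions. At equal list length, 10.0% of the 229 high-only and 16.3% of the 141 low-only regions lay within 1 kb of a start. At 10 to 100 kb these shares were 53.7% and 53.2%. Fold is the authors' ratio of summit reads to local background. The 1050 regions had a median fold of 6.63, a median −log10 p of 10.3 and a median summit of 10.3 reads. The regions open in all 6 had 9.82, 20.0 and 21.3. A part of the 1050 was open elsewhere: 61.6% had a peak in at least 1 spleen high library and 50.7% in at least 1 spleen low library. The shares among all regions were 69.4% and 67.8%. In axillary nodes they were 52.0% in high and 35% in low libraries, against 64.2% and 60.7% of all regions. The 1050 regions spread over 864 nearest genes, of which 53 had 2 or more and 5 had 3 (Lpp, Scgb1a1, Ets2, Arhgef3 and Foxp1). Over whole lists, summits within 1 kb of a start made up 42.0% ± 0.245 of high and 50.4% ± 0.184 of low peaks (SD, n = 3 each, exact permutation p = 0.1). At equal list length the shares were 49.6% ± 0.332 and 50.6% ± 0.235, closer together but still without overlap (exact permutation p = 0.1).

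Of the 12 regions high-only in both kinds of list with the highest −log10 p, some lay nearest to regulators of receptor signals or cell death. Several of these lay more than 100 kb from the gene. A region 1235 bp from the start of Pdcd1, the gene of the inhibitory receptor PD-1, had −log10 p of 21.5, 18.9 and 16 and folds of 9.12, 8.29 and 7.24 in the 3 high libraries (chr1:94053620-94053956, between genes). No low library had a peak there, nor did any axillary library, and 2 of 3 spleen high libraries did. A region 192 kb from Bcl2l11, which encodes the pro-apoptotic protein Bim, had −log10 p of 20.0, 22.6 and 13.9 (chr2:128319054-128319404, between genes). In the other organs it had a peak in 3 axillary low against 1 axillary high library and in 2 spleen low against 1 spleen high library. Another region, nearer to Bcl2l11 and inside its neighbour Acoxl, had 13.5, 13.5 and 14.6 (chr2:128092139-128092402). A region inside Clec16a and 120 kb from Socs1, a suppressor of cytokine signals, had 19.5, 17.2 and 17.9 (chr16:10665230-10665765). These values were far above the list floor of 5 in each high library, yet their absence from the low lists rests on that floor, so no fold between groups can be given.

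The region near Nab1, which encodes a corepressor of Egr factors, had −log10 p of 10.3, 23.5 and 17.5 and lay 112 kb from the gene (chr1:52388228-52388557). Hic1, a zinc finger repressor, had 21.9, 11.8 and 24.9 (chr11:75173573-75173894, 3478 bp from its start). Near an end of Gbp6, an interferon-induced GTPase gene without a listed start, the values were 14.2, 17.8 and 22.2 (chr5:105293708-105293941, inside the gene). Each of these 3 regions also had a peak in at least 1 low library of spleen and of axillary nodes. Within Eif2ak3, the gene of the stress kinase PERK, they were 22.5, 17.3 and 15.7 (chr6:70872207-70872584). Epop, whose product binds Polycomb complexes, had a peak 24 bp from an end of the gene with 18.3, 15.8 and 20.8. Its start was not listed, so this end may be the start. The remaining named regions were an Nr4a1 region described with its locus and regions near Sbk1, Rbm18 and Magi2, with single values between 13.1 and 24.6.

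**Figure D2:**
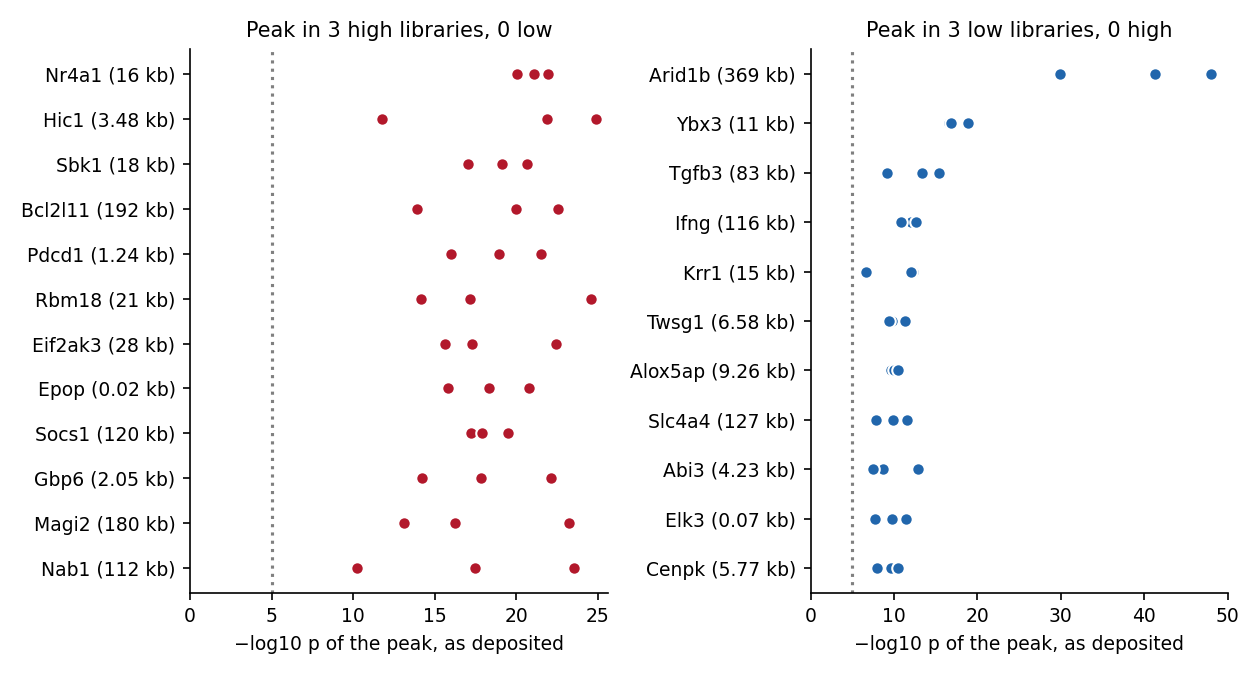
Deposited −log10 p of the peak in each of the 3 libraries that have it, for 12 high-only and 11 low-only regions with high means, named by the nearest gene and its distance; the dotted line marks 5, the lists' floor. The region near Arid1b stands alone among low-only regions at 29.9 to 48.0, and the other low-only regions lie at or below 18.9. The high-only regions were picked from 220 and the low-only ones from 17, so the panels do not compare strength.

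Low-only regions were few in the deposited lists, while lists of equal length held 141 or, ranked by fold, 256. As deposited, their median −log10 p was 9.71 and median fold 6.43, against 10.3 and 6.63 in high-only regions. The named low-only regions came from 17 in both kinds of list and the named high-only ones from 220. Their values are therefore not compared between directions. With 1 exception the named low-only regions stayed at or below 18.9. A region 369 kb from Arid1b, which encodes a subunit of the SWI/SNF remodelling complex, had −log10 p of 48.0, 41.3 and 29.9 and folds of 19.8, 18.8 and 14.7 in the 3 low libraries and no peak in any high one (chr17:4626166-4626566, between genes). It also had a peak in 3 of 3 spleen high libraries and in no axillary or spleen low library, so its direction was the opposite in spleen. Inside Ybx3, a cold shock domain protein gene, the values were 16.6, 18.9 and 16.8 (chr6:131377424-131377708). A region 116 kb from Ifng, the interferon gamma gene, had 12.1, 12.6 and 10.9 (chr10:118556542-118556861). The region nearest to Tgfb3 had 15.4, 13.3 and 9.16 and lies inside Ttll5 (chr12:85973666-85973940). At the promoter of Elk3, an ETS factor gene whose sequence is given above, low libraries had 9.75, 11.4 and 7.72 (chr10:93310922-93311265). It was the only low-only region within 1 kb of a start, and in spleen and in axillary nodes 3 of 3 high and 2 of 3 low libraries had a peak there. The other named low-only regions, near Krr1, Twsg1, Alox5ap, Slc4a4, Abi3 and Cenpk, had values between 6.66 and 12.8.

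By role in the pathway, TCR signal and activation genes had 15 high-only regions of 179 (8.38%), against 3.50% of all regions, and no low-only region. Lists of equal length left 3 high-only (1.68%) and 2 low-only regions of the 179. Among all 30041 regions they left 229 high-only (0.762%) and 141 low-only. The 3 were 2 regions near Cd28 and 1 near Nr4a1, in a stretch described below whose copy number is not known. The Cd28 region at chr1:60713775-60714101 had a peak in 2 axillary low and 0 axillary high libraries. The other Cd28 region had a peak in 0 axillary low libraries and 1 axillary high library. Receptor-proximal and costimulatory members were Zap70, the kinase recruited to the activated receptor (−log10 p of 14.4, 13.1 and 10.1, inside the gene), Fyn, Lat, Cd2 and Cd28, with 2 regions whose −log10 p ran from 10.7 to 15.0. Activation-induced members were Cd200, Icos, Cd40lg, Tnfrsf4, Irf4, Nr4a2 and Nr4a1. Among negative regulators 11 of 187 regions (5.88%) were high-only, at Pdcd1, Dgkz, Ubash3b, Tnfaip3, Nfkbia, Dusp4, Pag1, Rasa3 and Sla, and 2 of the 187 (1.07%) remained at equal length, at Pdcd1 and Rasa3. Of Rasa3, a Ras GTPase-activating protein gene, the values were 11.4, 15.5 and 11.8. Genes of the naive state, quiescence and survival had 16 of 215 (7.44%), with 3 regions inside Foxp1, 2 each at Ets1, Lef1 and Klf2 and 1 at Bcl2l11, Il7r, Bcl11b, Satb1, S1pr1, Tob1 and Btg1, and 6 of the 215 (2.79%) remained at equal length. The AP-1, NFAT, IRF and NF-kB list had 1 of 113 (0.885%), at Irf8. Effector and T helper genes had 8 of 149 (5.37%), genes of gut homing, retinoic acid and TGF-beta 3 of 130 (2.31%), and interferon response genes 3 of 63 (4.76%). Of the marker lists of other cell types, B cells had 0 of 5 and CD8 T and NK cells 0 of 10 high-only regions. Myeloid and dendritic cells had 2 of 23 (8.70%, Spi1 and Cebpb) and erythroid and stromal cells 2 of 19 (10.5%, both Pecam1). These last 2 shares, on few regions, were above that of the TCR list. As a share of each library's regions, TCR signal genes made up 0.605% ± 0.00381 of high and 0.526% ± 0.00992 of low regions, and naive state genes 0.675% ± 0.0273 and 0.602% ± 0.0140 (SD, n = 3 each). Neither overlapped between groups (exact permutation p = 0.1 each), as was also so for the myeloid and the erythroid and stromal markers above.

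At the 12618 regions open in all 6 libraries, summit reads could be compared directly. Summit reads are the whole-number pileup at a peak's summit, recovered from its fold and −log10 p. The ratio of high to low reads changed with the level of the region. Its median was 1.28 in the 471 regions under 10 reads, 1.37 at 10 to 15 reads, 1.39 at 15 to 20, 1.34 at 20 to 30, 1.27 at 30 to 40, 1.21 at 40 to 60, 1.16 at 60 to 80 and 1.11 from 80 reads on, where 67 regions lie. The depth ratio was 1.36, so both the weakest regions and those from 30 reads on gained fewer reads than depth alone gives. At 30 to 40 reads the ratio was 1.26 within 1 kb of a start and 1.32 farther away. The cause of this slope was not tested, and the calls in each direction depended on how it was scaled.

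**Figure D3:**
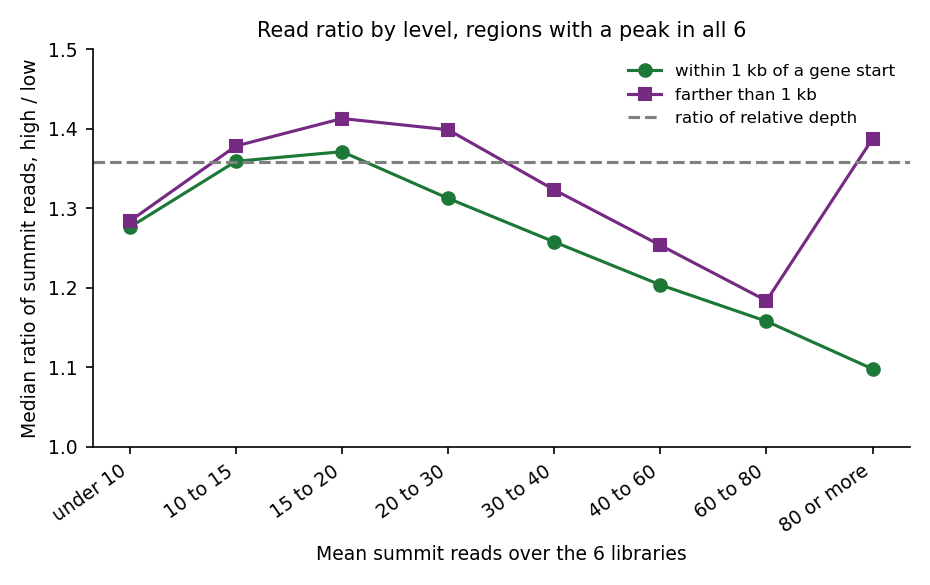
Median ratio of summit reads, high over low, for regions open in all 6 libraries, by mean summit reads (horizontal), within 1 kb of a gene start and farther away; the dashed line is the ratio of relative depth, 1.36. Near starts the ratio falls from 1.37 at 15 to 20 reads to 1.10 at 80 reads or more; the last point of the distant regions rests on 11 regions.

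With each library centred on its median log2 reads, limma called 671 of the 12618 regions at an adjusted p under 0.05, 90 higher (0.713%) and 581 lower (4.60%) in high libraries. The share of higher regions among the calls was 13.4%. It was 27.1% (70 and 188) with scaling by genome background, 36.5% (136 and 237) with median of ratios and 54.2% (77, or 0.610%, and 65, or 0.515%) with a scaling that follows the level, the last 2 chosen after the data were seen. On the deposited fold it was 94.6% (122 and 7). The median log2 difference of all regions was -0.08 as centred and 0.00 with the scaling that follows the level. Without 1 of the 6 libraries in turn, limma called from 192 to 407 regions. Without the trend of the variance with the level, limma called 2 higher and 0 lower regions, while 1843 had an unadjusted p under 0.05, so nearly all calls rest on that trend. Under both the median centring and the level-following scaling 55 regions were higher and 65 lower, and these differed in position. Of the 65 lower regions 55 (84.6%) lay within 1 kb of a start, and of the 55 higher regions 11 (20.0%) did.

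Regions higher under both scalings were mainly distant elements. The region inside Pcgf5, a Polycomb subunit gene, had 27, 25 and 26 summit reads in high and 7, 9 and 7 in low libraries, with no overlap (chr19:36375085-36375806). Its log2 difference was 1.30 ± 0.23 (SE, limma adjusted p = 3.06e-05), relative to the median region. Inside Plekha1, a phosphoinositide-binding adaptor gene, reads were 27, 19 and 24 against 7, 7 and 6 (log2 difference 1.32 ± 0.24, SE, limma adjusted p = 5.54e-05, chr7:130892974-130893396). The strongest promoter was that of Plxnc1, the receptor gene of semaphorin 7A, with 28, 30 and 40 against 11, 10 and 12 reads (1.08 ± 0.21, SE, limma adjusted p = 0.000109, chr10:94944512-94945334). Near Hspb7 reads were 22, 22 and 29 against 8, 9 and 8 (chr4:141425505-141426109). Inside Atxn7, a SAGA complex gene, they were 52, 46 and 45 against 20, 17 and 21, and near Tmem260 24, 28 and 28 against 6, 7 and 14. Both lie on chromosome 14, described below. High and low libraries did not overlap in raw reads in any of these 6 regions, which were picked by p from the same reads. Of all regions open in all 6 libraries, 47.2% had higher raw reads in every high library. The other 4 of the 10 regions with the lowest p, at Grasp and Nr4a1, lie in the Nr4a1 block. Some regions were assigned to immediate early and NFAT genes, none of them at a listed start. One between genes, 10583 bp from the Atf3 start, had 27, 19 and 22 against 10, 9 and 10 reads (0.74 ± 0.23, SE, limma adjusted p = 0.0335, and 0.0899 with the scaling that follows the level). Inside Nfatc1, 5870 bp from an end of the gene, reads were 34, 36 and 42 against 12, 19 and 18 (limma adjusted p = 0.00487). A region between genes, 10030 bp from the Fosb start and named after its values were seen, had 42, 45 and 42 against 26, 22 and 18. In Foxp1, a transcription factor of T cell quiescence, a region 84.2 kb from the nearest start had 15, 22 and 18 against 6, 7 and 8 (0.91 ± 0.25, SE, limma adjusted p = 0.0146).

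**Figure D4:**
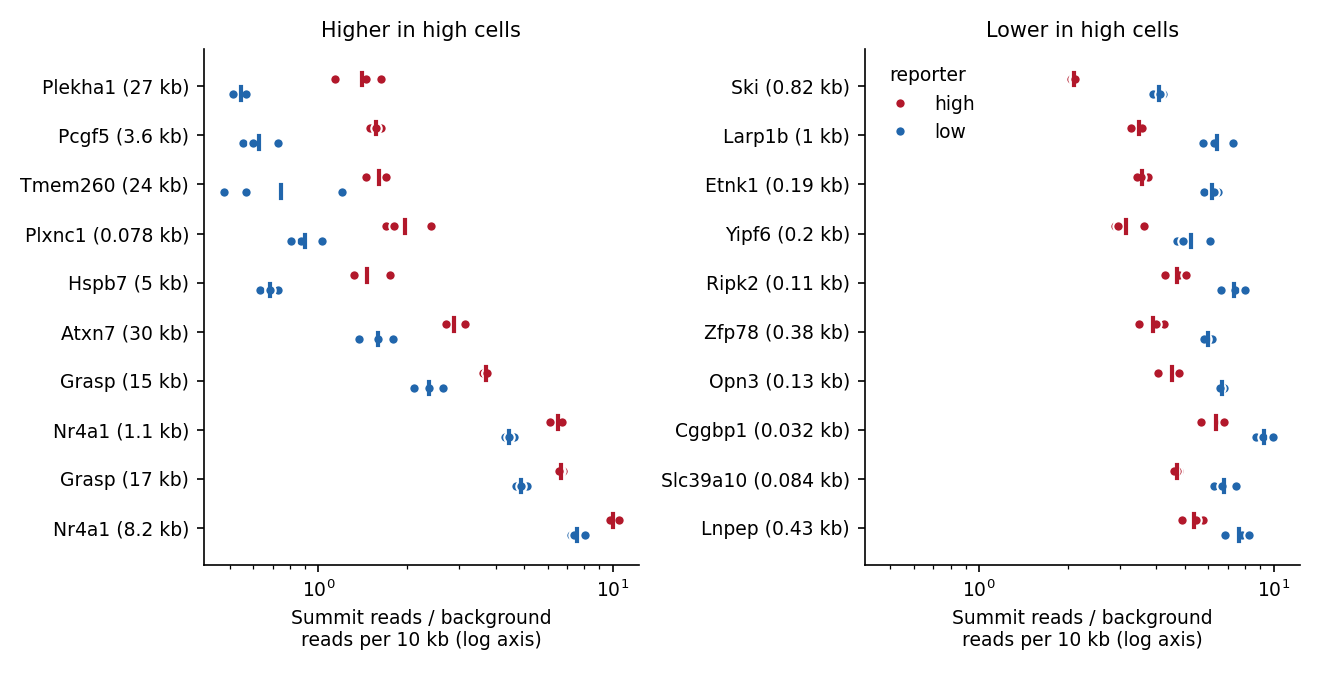
Summit reads divided by background reads per 10 kb (log axis) in each of the 6 libraries, for the 10 regions per direction with the lowest p by limma, named by nearest gene and distance to its nearest start or end; bars are means of 3 libraries. High and low libraries do not overlap in any of the 20 regions on this scale.

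Regions lower in high libraries were mainly strong CpG-rich promoters. At Larp1b, an RNA-binding protein gene, raw summit reads were 54, 60 and 59 in high and 79, 71 and 85 in low libraries, lower in spite of the greater depth of high libraries (chr3:40949327-40950249, inside the gene, 998 bp from its start). The log2 difference was -0.91 ± 0.10 (SE, limma adjusted p = 8.68e-13). At Ski, whose product represses Smad targets of TGF-beta signalling, reads were 34, 35 and 35 against 49, 52 and 48 (-0.99 ± 0.13, SE, limma adjusted p = 1.57e-08, chr4:155223031-155223689, 825 bp from the start). Etnk1, an ethanolamine kinase gene, had 62, 59 and 57 against 73, 80 and 73 (-0.82 ± 0.09, SE, limma adjusted p = 6.38e-11). In these 3 regions each high library lay below each low library before any scaling. Over all regions open in all 6 libraries, 28 (0.222%) did so, of which 25 lay within 1 kb of a start, while 5952 (47.2%) had higher raw reads in every high library. Yipf6, a Golgi membrane protein gene, had 60, 48 and 49 against 59, 61 and 71, and Ripk2, the kinase gene downstream of NOD receptors, 79, 84 and 71 against 93, 82 and 93. At Cggbp1, a CGG-repeat binding protein gene, reads were 110, 94 and 112 against 110, 114 and 116, a log2 difference of -0.58 ± 0.07 as centred and -0.25 ± 0.07 with the level-following scaling (SE, limma adjusted p = 3.67e-11 and 0.0255). Lnpep and Slc39a10, also among the 10, were called as centred but not with the level-following scaling (limma adjusted p = 0.142 and 0.0776).

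Promoter sequence moved with these calls. Of 53 promoter windows that overlap a region lower under both scalings, 46 (86.8%) held a GC box, against 67.7% of 7689 windows with a region open in all 6 libraries and 43.1% of all windows. Their median GC content was 69.2%, against 62.0% and 55.6%. An NF-Y box was in 12 of 53 (22.6%) against 39.3% and 35.7%, but in 47.4% of the 534 windows of regions lower as centred, so its share depended on the scaling. The 65 lower regions had a median of 35 summit reads against 21.3 in all regions open in the 6 libraries, and the parts of level, GC content and GC boxes were not tested. Of 83 windows that overlap a high-only region, 48 (57.8%) held a GC box and 8 (9.64%) an AP-1 site, against 3.02% AP-1 sites in windows with a region open in all 6 libraries and 6.17% of all windows.

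Within the pathway lists, limma called few regions. TCR signal genes had 2 of 60 regions called higher, both at Nr4a1, and 1 lower, near Nr4a3 (54, 58 and 47 against 52, 56 and 47 reads, log2 difference -0.44 ± 0.11, SE, limma adjusted p = 0.00809). Negative regulators had 0 of 72 higher and 2 lower. These were the promoter of Cblb, the gene of Cbl-b (84, 72 and 82 against 79, 68 and 76 reads, -0.38 ± 0.09, SE, limma adjusted p = 0.00166), and a region 26.7 kb from Pdcd1 (26, 22 and 29 against 30, 24 and 39, -0.73 ± 0.17, SE, limma adjusted p = 0.00284). Pdcd1 thus had a high-only region near its start and a shared region farther away that was lower. With the level-following scaling TCR signal genes had 5 regions higher, all at Nr4a1, and 0 lower. The calls at Nr4a3 and Cblb did not pass (limma adjusted p = 0.461 and 0.736) and that near Pdcd1 did (0.0355). The AP-1, NFAT, IRF and NF-kB list had 3 of 43 higher and 1 lower, at Relb (45, 50 and 33 against 52, 42 and 52 reads). Promoters of Stat3, Tgfbr1 and Ifngr1 were lower as centred and not with the level-following scaling (limma adjusted p = 0.224, 0.21 and 0.282), and Klf3 likewise (0.476). Against 0.713% higher and 4.60% lower among all regions, the lists hold too few calls to say more.

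The difference between high and low cells was then compared between organs, at the 8756 regions open in all 18 libraries. It differed between mesenteric nodes and spleen in 23 regions (0.263%), 20 of them more negative in mesenteric nodes, and between mesenteric and axillary nodes in 3 (0.0343%), all more negative (limma, adjusted p under 0.05). The 3 were Yipf6, Larp1b and Ski, which were also among the 23. At Larp1b, spleen libraries had 58, 54 and 56 reads in high and 62, 48 and 52 in low cells, and axillary libraries 51, 46 and 41 against 40, 51 and 33. The log2 difference in mesenteric nodes was lower than in spleen by 0.88 and than in axillary nodes by 0.95 (limma adjusted p = 0.00169 and 0.000579). At Ski, spleen libraries had 33, 42 and 44 against 41, 36 and 38 and axillary ones 29, 23 and 21 against 21, 22 and 20 (lower by 0.94 and 1.06, limma adjusted p = 0.0161 and 0.00752). At Yipf6 they were 55, 61 and 51 against 51, 45 and 42 and 56, 41 and 48 against 37, 42 and 35 (lower by 0.94 and 0.96, limma adjusted p = 0.00169 and 0.000579). Low libraries of mesenteric nodes thus exceeded high ones in all 3 regions on average, and those of spleen and axillary nodes did not. Among regions that passed against spleen and not against axillary nodes were the promoters of Etnk1, Ripk2, Rab22a, Sipa1l2, Prkab2 and Tada1, and, in the positive direction, Atxn7, Epas1 and Map3k13. The Epas1 region had 22, 21 and 24 against 16, 13 and 10 reads in mesenteric nodes and 12, 10 and 8 against 23, 19 and 19 in spleen.

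Around Nr4a1, the gene that the reporter reads, local reads were many times the genome background over a long stretch. This block holds 22 regions over 129773 bp (chr15:101210177-101339949), from Grasp past Nr4a1 to Krt80, and 16 of them were open in all 6 libraries. Local reads, the caller's background around a peak relative to the genome background, had a median over those 16 of 55.2, 53.5 and 53.3 in high and 29.0, 28.9 and 32.0 in low libraries (54.0 ± 1.04 against 30.0 ± 1.75, SD, n = 3 each, a ratio of 1.80, exact permutation p = 0.1). High libraries lay above low libraries in all 16 regions, with ratios from 1.44 to 2.11. Over the 11 of these regions open in all 18 libraries the ratio was 1.45 in mesenteric nodes, 1.39 in spleen and 1.72 in axillary nodes, without overlap between high and low in any of them. The copy number of this stretch and its relation to the reporter are not given, so open chromatin and number of copies cannot be told apart here.

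**Figure D5:**
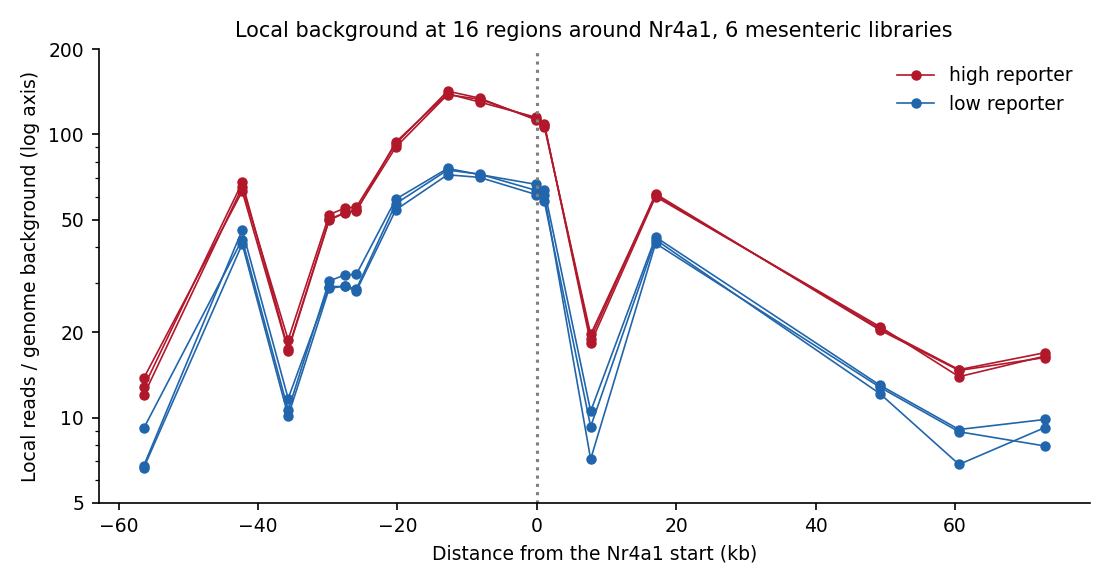
Local reads relative to the genome background (log axis) at the 16 regions of the Nr4a1 block open in all 6 libraries, against distance from the Nr4a1 start in kb, 1 line per library. The 3 high libraries lie above the 3 low libraries at every region, by 1.44 to 2.11 times on average.

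At Nr4a1 itself 6 regions were open in all 6 libraries and 2 were high-only. At its promoter, summit reads were 197, 182 and 202 in high and 130, 138 and 137 in low libraries (chr15:101266310-101267254). The log2 difference was 0.05 ± 0.05 as centred and 0.42 ± 0.05 with the level-following scaling (SE, limma adjusted p = 0.683 and 6.6e-12), while the deposited fold was lower in high libraries, at 6.33, 5.76 and 6.34 against 9.70, 9.61 and 10.0. Direction at this promoter therefore depended on whether reads were set against the genome or against the local background. A region 8209 bp from the nearest start and inside the gene had 161, 163 and 174 against 91, 99 and 86 reads (chr15:101258253-101259022, 0.38 ± 0.06, SE, limma adjusted p = 2.35e-06), and one 1089 bp away 111, 112 and 101 against 58, 53 and 52 (chr15:101267487-101268384, 0.52 ± 0.08, limma adjusted p = 7.69e-06). The deposited fold turned the direction at both, with 4.54 ± 0.265 in high against 5.98 ± 0.119 in low libraries and 3.61 ± 0.230 against 4.15 ± 0.389 (SD, n = 3 each). The remaining 3, at 20.2, 12.8 and 7.7 kb, had up to 211 reads in a high and 156 in a low library, and none passed as centred (limma adjusted p = 0.995, 0.257 and 0.159). With the level-following scaling the regions at 20.2 and 12.8 kb were higher (limma adjusted p = 3.54e-11 and 1.06e-11) and the third was not called (0.165). The high-only regions lay 16.3 and 10.6 kb from the start, with −log10 p of 20.0, 21.9 and 21.1 and of 11.8, 13.5 and 9.33 and folds of only 2.83, 2.96 and 2.88 and 2.36, 2.49 and 2.19. The first of them had a peak in 1 to 3 libraries of each other group, and the second in 3 of 3 spleen high and 1 axillary high library and in no low library of any organ.

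Chromosome 14 held 12 of the 90 regions called higher by limma. Outside the Nr4a1 block no other chromosome held more than 7. The block itself held 6, and the rest of chromosome 15 held 5, so chromosome 15 came close to chromosome 14. Summit reads at its regions, divided by the reads that the genome background gives at a position, had a median of 100.3, 99.6 and 103.7 in high and 93.2, 84.8 and 96.6 in low libraries (101.2 ± 2.21 against 91.5 ± 6.07, SD, n = 3 each, ratio 1.11, exact permutation p = 0.1), without overlap. Chromosome 16 did not overlap either, with a ratio of 1.03. On chromosome 14 the median log2 difference of the 484 regions open in all 6 libraries was 0.03, and 0.13 with the level-following scaling. Over all regions it was -0.08 and 0.00. High-only regions were 51 of its 1227 regions (4.16%), near the 3.50% of all regions and under the 4.72% of chromosome 19. Without chromosome 14 and the Nr4a1 block, 996 high-only and 18 low-only regions remained, so the counts did not rest on them.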

How the data were processed

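Per the labels, the data are ATAC-seq peak lists on mm10 (GRCm38). Trimmomatic 0.33, Bowtie2, bedtools and MACS are named in the submitters' processing notes, while caller options, duplicate handling and read shifting were not stated there. Each library has 1 deposited list, so these peaks were called per sample. The deposited columns are the authors' fold ratio of summit reads to local background, their −log10 p and −log10 q, and a score that is the −log10 p times 10, within 1 unit of its whole part. Only autosomes and the X chromosome entered, which left out 144 mesenteric peaks.

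Peaks of the 6 lists that overlap by at least 1 bp were merged into regions. Equal lists held the 17203 peaks of highest −log10 p. Regions were assigned to the nearest gene start in the RefSeq tables, or to the nearer gene end for genes without a listed start, and within 100 kb for gene lists. Such an end is either end of the gene and may be its start. Counts by distance from a start include these ends. Whole-number summit reads were recovered from fold and −log10 p as a Poisson tail, within 0.002 of the deposited −log10 p, in 100% of peaks, and relative depth from the local background in 10000 bp windows. Total reads per library are not given. Summit reads at regions open in all libraries compared were log2 transformed, centred on each library's median and tested with limma 3.58.1 (R 4.3.3, variance trend, Benjamini-Hochberg adjusted p under 0.05). A region counts only when every library reached the caller's threshold, which keeps weak regions with large differences out. Single values were tested by exact permutation of the 6 libraries. The steps were tested on simulated data.

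Named regions are the 12 per direction that are high-only or low-only in both kinds of list with the highest −log10 p, the 10 per direction with the lowest limma p, up to 24 of the TCR and negative regulator lists and up to 3 of each other list and kind, and every Nr4a1 region; 1 low-only region of this set is not reported here. The comparison and the gene lists were chosen with earlier results of these data known. Alternatives tried were equal lists ranked by fold, scaling to equal depth, a −log10 p of at least 8, stricter merging, regions merged over 18 libraries, other scalings, a replicate block and leaving out each library.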

Additional observations from a re-analysis of the deposited data

Results flagged for a closer look

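The high against low difference in summit reads differed between organs at 6 of the named regions, by limma's test of that difference, in log2 units and relative to the median region. Against spleen, the mesenteric difference was more negative at the promoters or near-promoter regions of Yipf6 (-0.94), Larp1b (-0.88), Ski (-0.94), Etnk1 (-0.78) and Ripk2 (-0.66), and more positive at the Atxn7 region on chromosome 14 (0.99). Against axillary nodes it was more negative at Larp1b (-0.95), Ski (-1.06) and Yipf6 (-0.96). With the scaling that follows the level, Ripk2 no longer passed against spleen (limma adjusted p = 0.117).

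Outside the chromosomes analysed, the 6 mesenteric lists held 144 peaks, 25 to 28 in each high and 20 to 22 in each low library, of which 2 or 3 per library lay on chromosome Y and the others on unplaced sequences or the mitochondrial genome.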

How the results depend on the processing

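The sign of the difference in peak number (5697 peaks, with a −log10 p of at least 8 4924 and at equal depth 5312) and in the share of summits near a start (-8.39 percentage points, -1.07 at equal list length) held under each alternative run, but with 2 against 3 libraries the exact permutation p is at least 0.2. Equal depth was a rescaling of deposited peaks that leaves their widths as they are. High-only regions numbered 229 at equal list length, 263 when ranked by fold and 1541 to 1773 without 1 library, and low-only regions 141, 256 and 33 to 58. Leaving out a library loosens this rule, since fewer libraries must agree. limma's calls (671, of which 90 higher and 581 lower) became 258 (188 lower) with genome background scaling, 129 (7 lower) on deposited fold, 170 (94 lower) among 3469 regions with at least 30 reads, 373 (136 and 237) with median of ratios, 142 (65 lower) with the level-following scaling and 2 higher and 0 lower without the variance trend, where 1843 regions had an unadjusted p under 0.05. Without 1 library, calls ranged from 192 to 407, from 12 to 62 higher and from 180 to 345 lower, with fewer samples. Regions differing from spleen (23) ranged from 12 to 16 and those differing from axillary nodes (3) from 2 to 5 without 1 mesenteric library, and the latter were 9 with median of ratios. The cause of these changes was not tested.

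The replicate block gave 601 calls (75 higher and 526 lower), and 19 and 3 regions between organs. Correlations of deviations between same-numbered libraries were 0.00154, -0.00703 and -0.00412. With a median of 21.3 summit reads per region, the scatter of counts can hide a pairing. These values therefore do not tell whether same-numbered libraries were paired. On deposited fold 6 named regions turned direction, the Grasp regions to -0.072 and -0.30 and 4 Nr4a1 regions to -0.70, -0.40, -0.67 and -0.20. The Nr4a1 region 20.2 kb upstream went from 0.00 to 0.38 with the level-following scaling and 0.18 among regions of at least 30 reads. Of 50 regions named by presence, 14 changed their count of libraries at equal list length. Depth limits this comparison to regions above a −log10 p of 5 in every library counted.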

Other observations

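Beyond the regions named by rule, those called by limma under both scalings lay near several other genes of T cells, picked here after their values were seen. Higher in high libraries were a region 102 kb from Tnfaip3, the A20 gene that restrains NF-kB (42, 45 and 37 against 21, 19 and 23 reads), one inside Gfi1, a repressor of lymphocyte differentiation genes (20, 19 and 21 against 8, 10 and 6), one near Gimap1, a GTPase gene of lymphocyte survival (46, 44 and 48 against 29, 26 and 17), one near Pik3cg (22, 25 and 26 against 9, 9 and 12) and one inside Rictor, of the mTORC2 complex (28, 33 and 24 against 10, 15 and 12). Tnfaip3 had its own high-only region 47.0 kb from the start, with −log10 p of 10.2, 13.8 and 10.0. Lower in high libraries were a region 132129 bp from Prkcq, the gene of protein kinase C theta in TCR signalling (10, 9 and 12 against 16, 14 and 18 reads), and the promoters of Nampt, of NAD synthesis (48, 48 and 46 against 55, 51 and 61), Apaf1, of the apoptosome (37, 35 and 38 against 50, 49 and 36), and Ccne1, the cyclin E1 gene (37, 31 and 31 against 39, 40 and 40).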
